A study of Homo sapiens with 24 samples.

Results

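The study classes mocetinostat as an inhibitor of class I histone deacetylases, and the genes of that class are HDAC1, HDAC2, HDAC3 and HDAC8. They were taken by symbol, with no measured value involved, as 4 of the 57820 gene rows of each count table, and the reads assigned to them were followed as counts scaled to a common library size (CPM) through 24 RNA-seq libraries in 8 groups of 3 biological replicates. The libraries were made from human osteosarcoma cells to ask how the loss of ID3 alters the response to a class I HDAC inhibitor. The 12 AID-DIvA libraries, from a U2OS derivative with an inducible AsiSI restriction enzyme, were WT untreated, WT exposed to mocetinostat for 24 h and then left for 24 h in medium without it (treated and recovered), ID3-KO untreated, and ID3-KO treated and recovered. The 12 U2OS libraries were WT untreated, WT treated with mocetinostat, ID3-KO untreated and ID3-KO treated, with no recovery in their labels. The sampling before recovery is inferred from the labels and the study's methods. Cell line label and recovery therefore coincide in every treated library, and their parts in a difference between the lines cannot be told apart. For the AID-DIvA samples the titles and the treatment field of the labels disagree, and groups here rest on the titles. The field holds the opposite of each title, so that following it would turn the sign of every AID-DIvA treatment value and change what the differences between the lines measure. The mocetinostat concentration of this experiment, the way the KO cells were made and the number of clones behind them are not given in the sources used here.

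Histone deacetylases remove acetyl groups from lysines of histone tails and of other proteins, and acetylated histone tails mark active promoters and enhancers. HDAC1 and HDAC2 are close paralogs that act as the paired catalytic subunits of the SIN3, NuRD, CoREST and MiDAC corepressor complexes, HDAC3 is the catalytic subunit of the NCoR/SMRT complex and needs its corepressor for activity, and HDAC8 works without such a complex and deacetylates the cohesin subunit SMC3. Mocetinostat is a benzamide, a class of compounds that occupy the zinc-containing active site of the deacetylases they inhibit. How strongly it acts on each of the members was not measured here, and HDAC8 is included by its class alone. ID3 is a helix-loop-helix protein without a DNA-binding region that holds E proteins away from their E-box sites.

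HDAC1 (ENSG00000116478.7) lies at chr1:32757687-32799236 on the forward strand of hg19, HDAC2 (ENSG00000196591.7) at chr6:114254192-114332472, HDAC3 (ENSG00000171720.5) at chr5:141000443-141016437 and HDAC8 (ENSG00000147099.15) at chrX:71549366-71792953, the last 3 on the reverse strand. Their canonical transcripts have 14, 14, 15 and 11 exons with coding lengths of 1446, 1464, 1284 and 1131 bases. The sequences just upstream are shown because ID3 acts on factors that bind E-boxes and because base composition separated the members. Each line below holds the 250 bases before the start of the gene in RefSeq (GRCh38.p14), 5′ to 3′ on the strand of the gene, and each occurs exactly once in hg19 at the position given. The RefSeq start need not be that of the counted gene. The HDAC2 and HDAC8 sequences lie inside the gene coordinates given above, and the HDAC3 sequence overlaps those of its gene. Capitals mark, on either strand, CANNTG (the E-box of E proteins), GGGCGG (the GC box) and CCAAT.
HDAC1, chr1:32757434-32757683, forward strand: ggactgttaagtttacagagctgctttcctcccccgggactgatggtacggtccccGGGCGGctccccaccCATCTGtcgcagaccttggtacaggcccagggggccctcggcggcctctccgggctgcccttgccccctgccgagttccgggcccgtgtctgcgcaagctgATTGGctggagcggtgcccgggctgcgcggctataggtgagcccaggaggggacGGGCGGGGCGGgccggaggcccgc
HDAC2, chr6:114292313-114292562, reverse strand: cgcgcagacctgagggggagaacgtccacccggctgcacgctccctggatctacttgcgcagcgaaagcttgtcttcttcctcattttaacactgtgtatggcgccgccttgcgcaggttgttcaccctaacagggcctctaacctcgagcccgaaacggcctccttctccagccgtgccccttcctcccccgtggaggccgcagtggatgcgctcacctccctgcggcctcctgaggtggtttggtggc
HDAC3, chr5:141016417-141016666, reverse strand: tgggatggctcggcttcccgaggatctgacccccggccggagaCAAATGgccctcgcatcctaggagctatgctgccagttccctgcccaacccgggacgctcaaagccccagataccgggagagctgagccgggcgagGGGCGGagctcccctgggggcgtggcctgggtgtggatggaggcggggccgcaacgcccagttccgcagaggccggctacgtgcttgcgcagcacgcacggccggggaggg
HDAC8, chrX:71792694-71792943, reverse strand: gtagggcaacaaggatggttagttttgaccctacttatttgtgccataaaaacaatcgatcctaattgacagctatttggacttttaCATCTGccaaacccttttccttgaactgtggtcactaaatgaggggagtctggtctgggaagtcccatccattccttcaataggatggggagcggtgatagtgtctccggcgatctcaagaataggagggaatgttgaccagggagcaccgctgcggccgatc

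The HDAC1 window held all the motifs searched: a CANNTG whose first base lies 179 bases before the start, a CCAAT in reverse orientation at 78, and 3 GC boxes at 194, 24 and 19, of which the last 2 overlap. The HDAC3 window held a CANNTG at 207 and a GC box at 111, the HDAC8 window a CANNTG at 163, and the HDAC2 window none of these letters. Such motifs are frequent: 61.8% of 35116 RefSeq windows of the same length held CANNTG, 42.6% held GGGCGG and 32.0% held CCAAT, so that a match is a description of the sequence only. GC content separated the windows more clearly, at 71.6% for HDAC1, 70.8% for HDAC3, 63.2% for HDAC2 and 48% for HDAC8 against a median of 58% over all windows. HDAC8 was thus the only member below that median, but it lay within the quartiles of all windows, 46.4% and 68%, which HDAC1 and HDAC3 exceeded. Its window had 7 CG dinucleotides where the others had 18 to 22, all within the quartiles of 3 and 23.

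Reads of the members could be told apart by sequence. No run of 100 bases, the read length, was shared between the canonical transcripts of any pair of members, and the longest shared run was 18 bases, between HDAC1 and HDAC3. The relation of HDAC1 to HDAC2 is visible in some of the purchased siRNAs that the study used against them, which were not applied to the cells of these libraries. In the 3 shown, chosen because they read matching stretches of both genes, capitals mark the bases that differ from the closest stretch of the paralog (HDAC2 for the HDAC1 siRNAs, HDAC1 for the HDAC2 siRNA).
siHDAC1 number 1, chr1:32796504-32797087 across an intron, coding: cUaaugagCuUccauaCaa
siHDAC2 number 1, chr6:114266622-114267177 across an intron, coding: cCaaugagUuGccauaUaa
siHDAC1 number 2, chr1:32757797-32757815, coding: GaaagucugUuacuacuac
The siRNAs numbered 1 read nearly the same coding stretch of both genes and each differed from the paralog at 4 of its 19 bases. The second HDAC1 siRNA differed from HDAC2 at 2 of 19. Of the others against these genes, HDAC1 numbers 3 and 4 differed from HDAC2 at 4 and 6 bases. HDAC2 number 2 was closest to HDAC8 with 6 differences, number 3 to HDAC3 with 3 and number 4 to HDAC1 with 5. Neighbouring gene models took few reads. The pseudogenes HDAC1P1 and HDAC1P2 had at most 17 and 7 counts in a library against at least 6661 for HDAC1, and the longest run that HDAC1 shared with them was 58 bases. RP3-399L15.3, which crosses the start of HDAC2 on the opposite strand, had 132 to 695 counts, up to 8% of the HDAC2 count. AC008781.7 lies antisense over the end of HDAC3, and HDAC3 counted from either strand came to 91.3% to 93.9% of its count on the strand that the kit reads, whereas the other members came to 100% to 101%. HDAC3 was therefore slightly undercounted, by a similar share in every library.

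All 24 libraries had between 37878751 and 76906266 assigned counts. At this depth HDAC8, the lowest member, had 1063 to 2371 counts, and HDAC1, the highest, had 6661 to 17840, so that no member was limited by low counts. ID3 transcript persisted in the KO libraries but was lower than in the matching WT libraries without overlap: 32.0 to 38.8 against 47.9 to 51.9 CPM in untreated AID-DIvA cells, 61.1 to 67.3 against 102.6 to 128.8 CPM after recovery, 29.3 to 32.25 against 52.1 to 80.7 CPM in untreated U2OS cells and 30.4 to 40.6 against 77.6 to 89.3 CPM in treated U2OS cells. Of 7 markers of bone mesenchyme 5 had a median of at least 1 CPM, TWIST1 and COL1A2 being at or near 0. The same held for 2 of 3 epithelial markers (CLDN4 at 17.2 CPM and EPCAM at 6.38 CPM) and none of 4 leukocyte markers. It also held for 1 of 2 endothelial markers (VWF at 3.10 CPM), since PECAM1, also listed, had no row under that symbol. WT untreated U2OS replicate 1 stood apart from both other replicates of its group, with a chi-square per gene of 91.1 and 102.9, while other pairs of replicates reached at most 27.3. The member tests and the list counts that rest on this library are given with and without it.

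All members were expressed in every library. Scaled for gene length and library size to TPM, a level that can be compared between genes, HDAC1 stood at 116 to 230 TPM over the 24 libraries, HDAC3 at 32.0 to 75.6, HDAC2 at 25.8 to 46.1 and HDAC8 at 14.5 to 21.0. HDAC1 exceeded 95.7% of the 18444 genes with a mean of at least 1 TPM, HDAC3 81.6%, HDAC2 74.6% and HDAC8 59.3%. HDAC1 thus supplied most of the class I transcripts per length and HDAC8 the fewest. These ranks lean on the length used: of the length-scaled counts of the 4 genes, HDAC1 took 62.4%, HDAC3 17.9%, HDAC2 12.9% and HDAC8 6.80% on average with the deposited exonic lengths, and 58.4%, 21.2%, 10.1% and 10.3% with the lengths of the canonical transcripts, an alternative chosen after seeing the data. With the second set HDAC2 and HDAC8 were level.

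Across the 8 groups each gene kept within a narrow range in CPM, a level compared between libraries for the same gene. The highest group mean exceeded the lowest 1.66-fold for HDAC1, 1.51-fold for HDAC2, 1.84-fold for HDAC3 and 1.42-fold for HDAC8. HDAC1, HDAC2 and HDAC3 had their highest mean in treated ID3-KO U2OS cells, at 263 ± 5.66, 196 ± 6.80 and 96.2 ± 1.10 CPM (SD, n = 3 each), and HDAC8 in untreated WT U2OS cells, at 32.3 ± 0.315 CPM (SD, n = 3). The lowest means were those of treated and recovered WT AID-DIvA cells for HDAC1 and HDAC3, untreated WT U2OS cells for HDAC2 and treated WT U2OS cells for HDAC8. In the order of group means, most neighbours overlapped in their libraries. HDAC1 was set apart from the next group in treated KO U2OS cells at the top and in treated and untreated WT U2OS cells further down, HDAC3 in treated WT U2OS cells and untreated KO U2OS cells, and HDAC8 in untreated WT U2OS cells at the top and in recovered WT AID-DIvA and treated KO U2OS cells near the bottom. For HDAC2, untreated KO AID-DIvA cells stood above recovered KO AID-DIvA cells, and treated WT U2OS cells above untreated WT AID-DIvA cells.

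**Figure D1:**
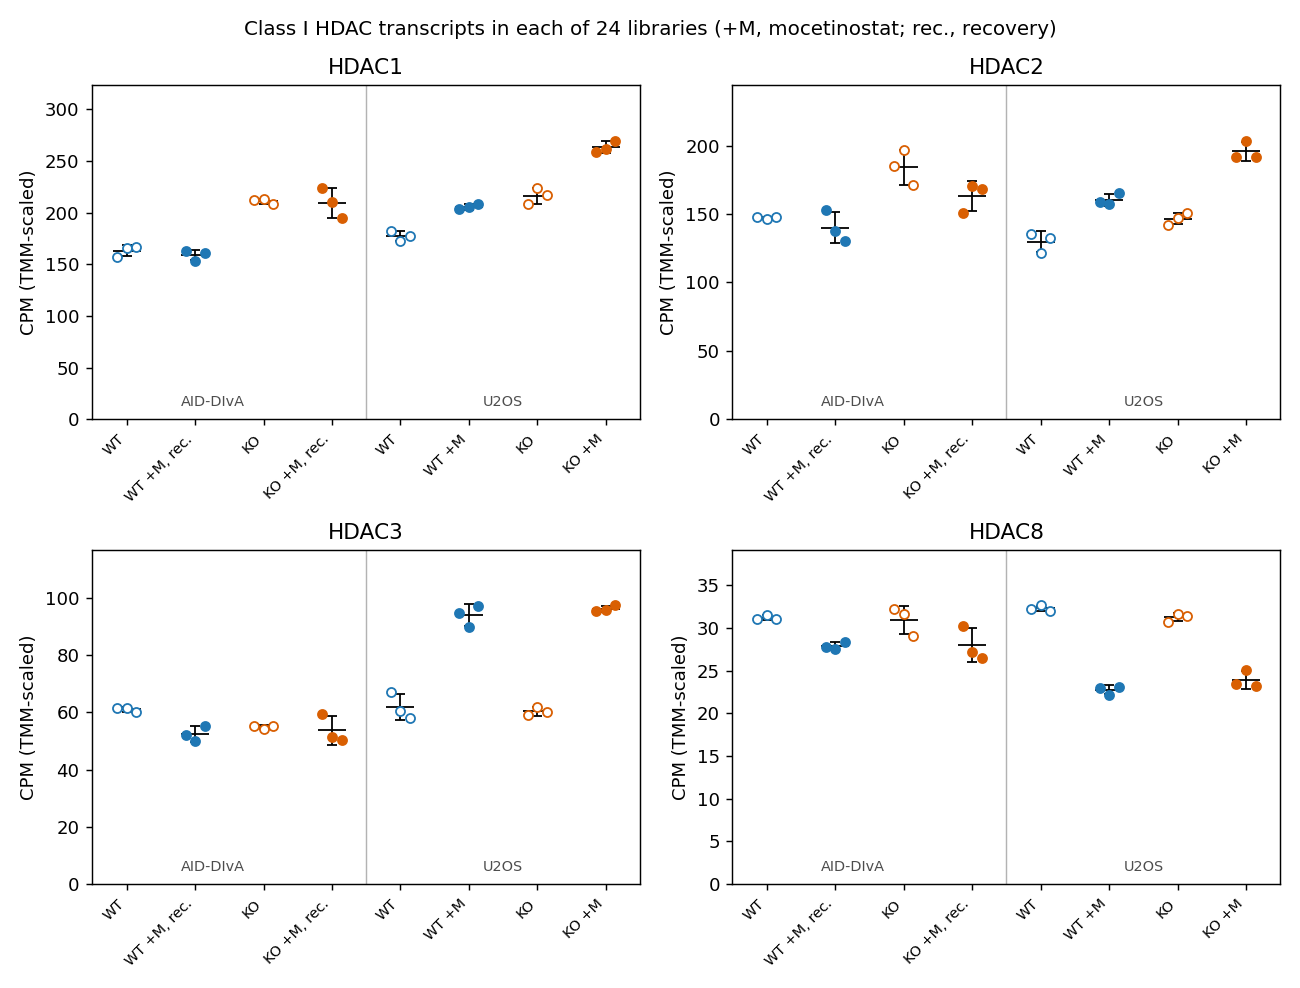
Level of each class I HDAC transcript (y axis, TMM-scaled CPM, from 0) in the 24 libraries by group (x axis), with WT in blue, KO in orange, untreated libraries as open points and treated libraries as filled points, and the mean and SD of 3 replicates in black. HDAC1, HDAC2 and HDAC3 stand higher and HDAC8 lower in the treated than in the untreated U2OS libraries, and the HDAC1 points of KO lie above the WT points of the same line and treatment.

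The first question was how the transcripts of the members stood when cells had been exposed to mocetinostat for 24 h. In U2OS cells of both genotypes, HDAC1, HDAC2 and HDAC3 rose and HDAC8 fell, without overlap between treated and untreated libraries for any member. The share of all genes without such overlap was not counted, so that this separation cannot be read as particular to the members. The deacetylase of NCoR/SMRT rose most, by about 1.5-fold to 1.6-fold, the HDAC1 and HDAC2 pair by 1.17-fold to 1.34-fold, and HDAC8 fell to 0.71 and 0.77 of its untreated level. All 4 members passed an adjusted p of 0.05 in WT and in KO cells (the quasi-likelihood test of edgeR, Benjamini-Hochberg adjusted over all genes tested, n = 3 against 3). Much of the transcriptome differed: 48.9% of 21797 genes tested in WT and 69.9% of 21176 in KO passed in either direction (26.0% and 35.8% higher, 22.9% and 34.0% lower), so that passing did not set the members apart. In bulk RNA, fewer cells of a type and less RNA per cell cannot be told apart. Marker lists moved in the same comparisons: of 7 mesenchymal markers 4 were lower in each genotype and 0 in WT and 1 in KO higher, with a summed level of 4236 to 4669 CPM before and 2790 to 3014 CPM after treatment in WT and of 3759 to 3921 and 2693 to 2825 CPM in KO. Of 3 epithelial markers 2 were higher in each genotype, with sums of 18.2 to 21.4 and 61.6 to 64.1 CPM in WT and 17.96 to 20 and 45.2 to 50.7 CPM in KO. The endothelial sum went from 5.40 to 7.26 up to 9.28 to 10.95 CPM in WT and from 3.14 to 3.32 up to 5.21 to 6.46 CPM in KO. Of the 2 endothelial markers tested, 2 were higher in each genotype. The leukocyte sum stayed below 1 CPM. The part of all these markers in the member values was not tested.

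HDAC3 stood at 67.0, 60.6 and 58.1 CPM in untreated WT U2OS cells and at 94.7, 89.9 and 97.4 CPM in treated ones. The log2 fold change was 0.61 (standard error 0.08, adjusted p = 5.9e-04, edgeR), and 22.4% of the genes tested had a larger one. In KO cells HDAC3 stood at 59.1, 62.0 and 60.1 CPM before and at 95.3, 95.9 and 97.4 CPM after treatment, a log2 fold change of 0.68 (standard error 0.04, adjusted p = 3.4e-12, edgeR). The treated libraries of both genotypes thus lay in the same range, from 89.9 to 97.4 CPM. Counted on the strand the kit reads, which frees HDAC3 from the reads shared with its antisense neighbour, the log2 fold changes were 0.62 and 0.68.

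HDAC8 moved the other way. Its values were 32.2, 32.7 and 32.1 CPM in untreated and 23.0, 22.1 and 23.1 CPM in treated WT U2OS cells, a log2 fold change of -0.50 (standard error 0.07, adjusted p = 5.8e-04, edgeR). In KO cells they were 30.7, 31.7 and 31.5 CPM before and 23.5, 25.1 and 23.2 CPM after treatment, a log2 fold change of -0.38 (standard error 0.05, adjusted p = 1.1e-06, edgeR). Every treated library lay below every untreated one in both genotypes. The enzyme outside the corepressor complexes was thus the only member whose transcript fell, and 19.4% of the genes tested in WT and 25.4% in KO had a lower log2 fold change.

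HDAC2, the partner of HDAC1 in its complexes, stood at 135.7, 121.3 and 132.7 CPM in untreated and 158.6, 157.4 and 165.6 CPM in treated WT U2OS cells (0.32 on the log2 scale, standard error 0.07, adjusted p = 0.0093, edgeR). It stood at 142.3, 147.4 and 150.6 CPM in untreated and 191.8, 203.6 and 191.8 CPM in treated KO cells (0.42 on the log2 scale, standard error 0.04, adjusted p = 1.0e-08, edgeR). The treated KO libraries were the highest of all U2OS libraries for this gene. HDAC1, the more abundant of the pair, had 182.8, 172.3 and 177.5 CPM in untreated and 203.3, 205.4 and 208.9 CPM in treated WT cells (0.22 on the log2 scale, standard error 0.07, adjusted p = 0.025, edgeR), and 208.7, 223.8 and 216.9 against 259.1, 261.3 and 269.8 CPM in KO cells (0.29 on the log2 scale, standard error 0.04, adjusted p = 2.5e-06, edgeR). Treatment brought HDAC1 in WT cells about to the level of untreated KO cells, and the WT treated and KO untreated libraries overlapped at 203.3 to 208.9 and 208.7 to 223.8 CPM.

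The WT calls for HDAC1 and HDAC2 were the least secure. Leaving out WT untreated replicate 1, the library that stood apart, gave WT log2 fold changes of 0.24 for HDAC1, 0.35 for HDAC2, 0.67 for HDAC3 and -0.50 for HDAC8, with adjusted p of 1.5e-08, 1.3e-11, 2.1e-20 and 4.1e-12 (edgeR). Leaving out any of the 5 other libraries (WT untreated replicates 2 and 3, WT treated replicates 1, 2 and 3) kept HDAC1 between 0.20 and 0.23 but with an adjusted p of 0.077 to 0.11, and HDAC2 without treated replicate 3 was at 0.30 with an adjusted p of 0.054. Without the filter on low counts HDAC1 was at 0.23 with an adjusted p of 0.075. HDAC3 and HDAC8 passed without any single library in both genotypes.

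**Figure D2:**
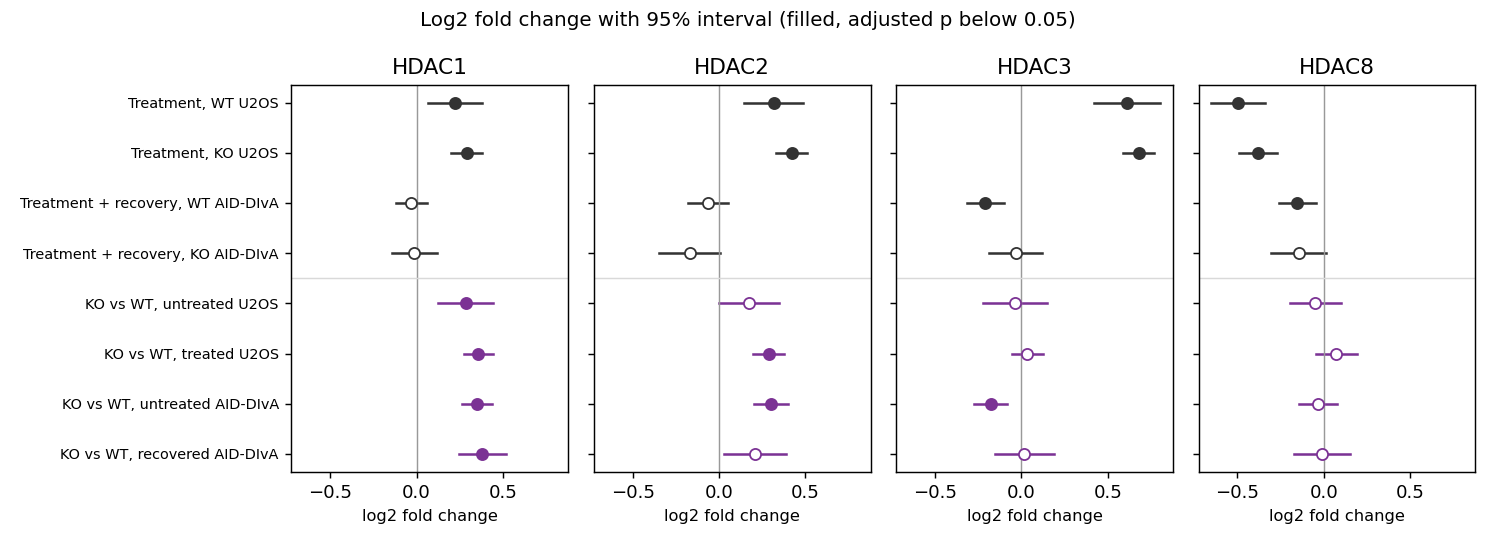
Log2 fold change (x axis) of each member in the 4 treatment comparisons (black, upper rows) and the 4 comparisons of KO with WT (purple, lower rows), with its 95% interval, and filled points for an adjusted p below 0.05. The U2OS treatment points lie right of 0 for HDAC1, HDAC2 and HDAC3 and left of 0 for HDAC8, the points after recovery lie at or left of 0, and HDAC1 is right of 0 in all 4 comparisons of KO with WT.

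After 24 h without the drug the picture differed. In WT AID-DIvA cells HDAC3 and HDAC8 were lower than in untreated cells, by 0.21 and 0.15 on the log2 scale, and HDAC1 and HDAC2 did not pass, while in KO cells no member passed. That is 2 of 4 members in WT, where 46.9% of 20289 genes passed (23.0% lower), and 0 of 4 in KO, where 40.1% of 20362 passed. In KO the count was also 0 at an unadjusted p under 0.05 and with DESeq2.

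HDAC3 had 61.4, 61.6 and 60.2 CPM in untreated and 52.0, 49.97 and 55.3 CPM in recovered WT cells, groups without overlap (log2 fold change -0.21, 95% interval -0.32 to -0.10, adjusted p = 0.0032, edgeR). In KO cells it had 55.3, 54.0 and 55.3 CPM before and 59.5, 51.4 and 50.3 CPM after, groups that overlapped (log2 fold change -0.03, 95% interval -0.19 to 0.12, adjusted p = 0.74, edgeR). Both intervals lay far below the rise measured in treated U2OS cells. HDAC8 had 31.1, 31.5 and 31.0 CPM in untreated and 27.7, 27.6 and 28.4 CPM in recovered WT cells (-0.15 on the log2 scale, standard error 0.05, adjusted p = 0.021, edgeR). This call was lost, at adjusted p of 0.065, 0.062, 0.084 and 0.054, without recovered replicate 2 or without untreated replicate 1, 2 or 3. In KO cells HDAC8 had 32.2, 31.6 and 29.02 CPM before and 30.3, 27.2 and 26.5 CPM after (log2 fold change -0.15, 95% interval -0.30 to 0.01, adjusted p = 0.13, edgeR), and without recovered replicate 1 the value was -0.18 with an adjusted p of 0.041. The HDAC8 estimates of both genotypes were therefore nearly equal.

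HDAC1 was close to its untreated level in both genotypes. It had 157.4, 166.3 and 166.5 CPM in untreated and 162.6, 153.3 and 161.1 CPM in recovered WT cells, and 212.2, 213.2 and 208.6 against 223.7, 210.5 and 194.5 CPM in KO cells, with 95% intervals of the log2 fold change from -0.12 to 0.06 and from -0.14 to 0.12. Changes as large as the 0.22 and 0.29 measured in treated U2OS cells lay outside these intervals. HDAC2 had 147.8, 146.0 and 147.6 CPM in untreated and 152.6, 137.3 and 130.1 CPM in recovered WT cells (log2 fold change -0.06, adjusted p = 0.36, edgeR), where leaving out recovered replicate 1 gave -0.13 with an adjusted p of 0.0017. In KO cells HDAC2 had 184.9, 196.5 and 171.0 CPM before and 150.8, 170.4 and 168.6 CPM after, without overlap by a margin of less than 1 CPM (log2 fold change -0.17, 95% interval -0.35 to 0.01, adjusted p = 0.11, edgeR).

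The difference between the recovered AID-DIvA and the unrecovered U2OS response was tested over all 24 libraries. It passed for all 4 members in WT and in KO, where 45.4% (22.6% higher, 22.8% lower) and 46.0% (21.7% higher, 24.3% lower) of 23087 genes passed. The response of HDAC3 was lower after recovery by 0.82 in WT and 0.70 in KO on the log2 scale (adjusted p = 5.4e-08 and 6.4e-07, edgeR), that of HDAC2 by 0.38 and 0.59 (adjusted p = 0.0018 and 1.0e-05), that of HDAC1 by 0.25 and 0.30 (adjusted p = 0.0095 and 0.0027), and that of HDAC8 was higher by 0.34 and 0.24 (adjusted p = 0.0019 and 0.024). Since the responses after recovery were small, the sign of these differences follows from the U2OS responses and is no separate result. Without WT U2OS untreated replicate 1 the WT differences were -0.27 for HDAC1, -0.40 for HDAC2, -0.88 for HDAC3 and 0.35 for HDAC8, all with an adjusted p of at most 0.0016. The HDAC8 difference in KO was the weakest, and its adjusted p rose to 0.055 without recovered AID-DIvA replicate 1, 0.072 without untreated AID-DIvA replicate 3, and 0.051 and 0.064 without treated U2OS replicates 1 and 3. Scaled by library totals alone, a setting that took the median of all genes from -0.04 to -0.15 in KO, it was 0.13 with an adjusted p of 0.21, and without the filter on low counts it was 0.24 with an adjusted p of 0.19.

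A second question was whether these transcripts differed between KO and WT cells. HDAC1 was higher in KO in all 4 comparisons, by 1.27-fold in untreated AID-DIvA cells, 1.30-fold after recovery, 1.22-fold in untreated U2OS cells and 1.28-fold in treated U2OS cells, and the KO and WT libraries did not overlap in any of them. The log2 fold changes were 0.35 (standard error 0.04, adjusted p = 5.0e-06), 0.38 (0.06, adjusted p = 0.0013), 0.28 (0.07, adjusted p = 0.031) and 0.36 (0.04, adjusted p = 3.4e-08, all edgeR). These comparisons use the same libraries as the treatment comparisons. They draw on the KO and WT cells of the AID-DIvA and U2OS lines only, and the number of KO clones is not given. The 4 comparisons are therefore not independent tests of the loss of ID3. Of all genes tested, 14.2%, 13.9%, 18.8% and 11.9% had a higher log2 fold change, in the order of comparisons given above. How many of all genes showed no overlap, or passed in all 4 comparisons, was not counted. In untreated U2OS cells the call was less secure. Without WT untreated replicate 1 the value was 0.31 (adjusted p = 2.7e-09), and without any of the 5 other libraries (WT untreated replicates 2 and 3, KO untreated replicates 1, 2 and 3) it lay between 0.26 and 0.31 with an adjusted p of 0.088 to 0.16.

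The number of members that passed was 3 of 4 in untreated AID-DIvA cells (36.7% of 20441 genes), 1 of 4 after recovery (23.7% of 20100), 1 of 4 in untreated U2OS cells (15.2% of 20621) and 2 of 4 in treated U2OS cells (37.9% of 21800). HDAC2 was higher in KO by 0.30 in untreated AID-DIvA cells (standard error 0.05, adjusted p = 1.1e-04, edgeR) and by 0.29 in treated U2OS cells (standard error 0.04, adjusted p = 3.8e-06, edgeR). It was at 0.21 after recovery (95% interval 0.03 to 0.38, adjusted p = 0.088) and at 0.17 in untreated U2OS cells (95% interval 0.00 to 0.35, adjusted p = 0.17). Both of these turned into calls without single libraries: the first at 0.27 without WT or KO recovered replicate 1 (adjusted p = 0.0499 and 0.0080), the second at 0.21 without WT untreated replicate 1 (adjusted p = 1.8e-05). HDAC3 was lower in KO in untreated AID-DIvA cells only by this test, at -0.18 (standard error 0.04, adjusted p = 0.0050, edgeR), and its intervals elsewhere were -0.15 to 0.19 after recovery, -0.22 to 0.15 in untreated and -0.06 to 0.13 in treated U2OS cells. HDAC8 did not pass in any comparison, with estimates from -0.05 to 0.07, although its KO and WT libraries did not overlap in untreated and in treated U2OS cells. HDAC1 thus passed in all 4 comparisons and HDAC2 in 2, and whether either differs from HDAC3 and HDAC8 was not tested.

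Whether the genotypes responded differently was asked with the genotype by treatment interaction, which used 12 libraries per line. In AID-DIvA cells 0 of 4 members passed, as 1.21% of 21265 genes did, and in U2OS cells 0 of 4, as 2.15% of 22647 genes did (edgeR). At an unadjusted p under 0.05 the counts were 1 and 0, and DESeq2 called 0 in both lines. The largest estimate was that of HDAC3 in AID-DIvA cells, 0.19 with a 95% interval of 0.01 to 0.36 and an adjusted p of 0.40. In U2OS cells the intervals ran from -0.09 to 0.23 for HDAC1, -0.07 to 0.29 for HDAC2, -0.13 to 0.26 for HDAC3 and -0.05 to 0.29 for HDAC8. Without WT untreated replicate 1 the U2OS estimates were 0.04, 0.07, 0.00 and 0.12 in the same order, with adjusted p of 0.72, 0.54, 0.98 and 0.40. The upper bounds, near 0.3, were as large as some of the treatment responses themselves, and a difference in response of that size lies within the intervals.

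Ratios within a library do not depend on its depth and show how the composition of class I moved. The log2 ratio of HDAC3 to HDAC8, each scaled by length, lay between 0.99 and 1.28 in all 18 libraries that were untreated or recovered, WT untreated U2OS replicate 1 being the highest of them. In the 6 treated U2OS libraries it lay between 2.15 and 2.29, with no overlap. This ratio joins the member that rose most in U2OS cells with the only one that fell, and only that of HDAC1 to HDAC2 was planned. The separation therefore follows from the changes given above and is no separate result. The log2 ratio of HDAC1 to HDAC2 moved less. It averaged 2.40 ± 0.05 in untreated and 2.31 ± 0.02 in treated WT U2OS cells, 2.51 ± 0.04 and 2.38 ± 0.07 in KO U2OS cells, 2.10 ± 0.05 and 2.13 ± 0.11 in untreated and recovered WT AID-DIvA cells, and 2.15 ± 0.08 and 2.31 ± 0.19 in KO AID-DIvA cells (SD, n = 3 each). The ratio of the complex partners HDAC1 and HDAC2 thus had group means between 2.10 and 2.51. It was lower in treated than in untreated U2OS libraries without overlap. The values were 2.28 to 2.33 against 2.37 to 2.45 in WT and 2.31 to 2.44 against 2.47 to 2.55 in KO. HDAC3 and HDAC8 moved apart by about 1 on the log2 scale under the drug. In share of the length-scaled counts of the 4 genes, HDAC3 went from 18.5% to 23.5% in WT and from 15.8% to 20.1% in KO U2OS cells, and HDAC8 from 8.33% to 4.90% and from 7.06% to 4.29%. The summed class I level rose from 237 ± 8.38 to 309 ± 7.56 TPM in WT and from 273 ± 7 to 359 ± 4.83 TPM in KO U2OS cells (SD, n = 3 each), values given as a description without a test. TPM carries no TMM factor, so these sums show a larger rise than the TMM-scaled CPM. In WT U2OS cells, HDAC1 went from a mean of 145.8 to 184.1 TPM but from 177.5 to 205.9 CPM.

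**Figure D3:**
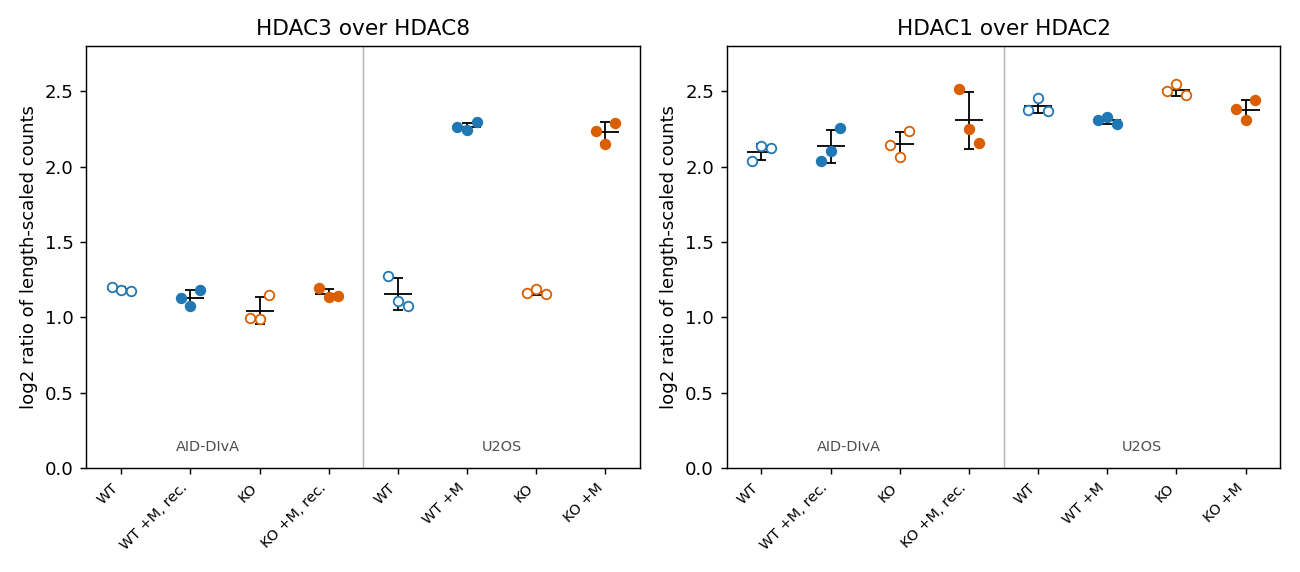
Log2 ratio of length-scaled counts (y axis, from 0) of HDAC3 over HDAC8 and of HDAC1 over HDAC2 in each library by group (x axis), with WT in blue, KO in orange, treated libraries filled, and mean and SD of 3 replicates in black. The ratio of HDAC3 to HDAC8 lies above 2 in the 6 treated U2OS libraries and below 1.3 in the other 18, which follows from the opposite changes of these members.

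The rest of the deacetylation machinery, 65 genes all of which were tested, gives the setting of the member values. In treated U2OS cells 8 of the 65 were higher and 24 lower in WT, and 15 higher and 33 lower in KO, with a median log2 fold change of -0.23 and -0.11 against a median near 0 over all genes. Over all genes tested 26.0% were higher and 22.9% lower in WT, and 35.8% and 34.0% in KO. Without WT untreated replicate 1 the WT counts were 15 higher and 37 lower, where 33.9% of 22378 genes were higher and 32.6% lower, an alternative chosen after seeing the data. HDAC1, HDAC2 and HDAC3 rose while more of the listed genes that passed fell than rose. Among the 7 other zinc-dependent HDACs, 1 was higher and 2 lower in WT and 4 higher and 3 lower in KO, and without WT untreated replicate 1 the WT counts were 2 and 3. HDAC7, a class IIa enzyme with little deacetylase activity of its own, fell from 220 ± 17.2 to 76.8 ± 2.36 CPM in WT (log2 fold change -1.51, adjusted p = 7.5e-06) and from 223 ± 5.71 to 69.85 ± 4.92 CPM in KO (log2 fold change -1.67, adjusted p = 4.3e-18, SD and n = 3, edgeR), a far larger change than that of any member. HDAC11, the class IV enzyme, rose in WT (0.57, adjusted p = 0.010) and in KO (0.43, adjusted p = 6.2e-07), and HDAC10, a polyamine deacetylase, fell in KO (-0.63, adjusted p = 8.5e-05).

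The corepressor subunits are the partners of HDAC1, HDAC2 and HDAC3. Of 38 listed, 5 were higher and 13 lower in treated WT U2OS cells, and 9 higher and 19 lower in KO, beside the 22.9% and 34.0% of all genes that were lower. Without WT untreated replicate 1 the WT counts were 9 and 23. Of the NuRD subunits 6 of 10 were lower in WT and 9 of 10 in KO, with 1 higher in each, and without that library 9 of 10 were lower in WT. Both subunits shared by SIN3 and NuRD were lower in WT and 1 of 2 in KO. CHD3, a chromatin remodeller of NuRD, fell from 383 ± 26.9 to 138 ± 5.14 CPM in WT (log2 fold change -1.46, adjusted p = 6.6e-06) and decreased by 1.59 on the log2 scale in KO (adjusted p = 5.9e-19, edgeR). The partners of HDAC3 in NCoR/SMRT gave 1 higher and 2 lower of 5 in WT (1 and 3 without that library) and 0 higher and 3 lower in KO, although HDAC3 itself rose. RCOR2, a CoREST scaffold that binds HDAC1 and HDAC2, rose from 3.44 ± 0.362 to 11.2 ± 0.148 CPM in WT (1.71, adjusted p = 1.3e-05) and by 2.06 in KO (adjusted p = 9.3e-15). SIN3 subunits were mixed, with 0 higher and 1 lower of 12 in WT, 4 and 6 without WT untreated replicate 1, and 5 higher and 2 lower in KO. Transcripts of the partner subunits thus moved in both directions, and more often down than up.

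The enzymes that oppose the members, the lysine acetyltransferases, were lower in 7 of 10 cases in treated WT U2OS cells and 9 of 10 in KO, with none higher and medians of -0.69 and -0.73, beside 22.9% and 34.0% of all genes lower. Without WT untreated replicate 1 the WT count was 9 of 10. KAT6B fell by 1.46 and 1.77 and KAT5 by 1.10 and 1.24 on the log2 scale in WT and KO (adjusted p = 0.0014, 4.0e-18, 1.3e-05 and 1.5e-14, edgeR). KAT6B varied in untreated WT cells (47.2 ± 15.4 CPM, SD, n = 3), and without replicate 1 it fell by 1.71. Among the NAD-dependent sirtuins, 1 was higher and 2 lower of 7 in each genotype (3 and 2 in WT without that replicate), SIRT4 of the mitochondria rising from 1.147 to 3.87 CPM in WT and from 0.859 to 2.88 CPM in KO (1.77 and 1.75). IPMK, a kinase on the way to the inositol phosphates that bridge class I HDACs and their corepressors, rose by 0.79 and 0.64 (adjusted p = 0.0078 and 1.0e-08), and the 2 other inositol phosphate enzymes did not pass.

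After recovery the same 65 genes gave 13 higher and 31 lower in WT and 6 higher and 21 lower in KO AID-DIvA cells. Over all genes 23.9% were higher and 23.0% lower in WT, and 20.2% and 19.9% in KO. Among them HDAC9, a class IIa enzyme, rose by 0.75 in WT and 1.19 in KO (adjusted p = 1.8e-06 and 1.1e-06), and HDAC6, the tubulin deacetylase, fell by 0.52 and 0.57 (adjusted p = 4.0e-04 and 2.1e-04, edgeR). The corepressor scaffold RCOR1 fell by 0.49 and 0.57, KAT2B by 0.70 and 0.81 and KAT6B by 0.61 and 0.76, each with an adjusted p of at most 8.8e-04. Acetyltransferases were lower in 7 of 10 cases in WT and 6 of 10 in KO. The single genes named here were picked for the largest changes of their list groups. The member estimates after recovery all lay between -0.21 and -0.01, with medians of -0.11 in WT and -0.09 in KO. The medians of all 65 listed genes were -0.13 and -0.14, so the members moved about as the typical listed gene did.

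**Figure D4:**
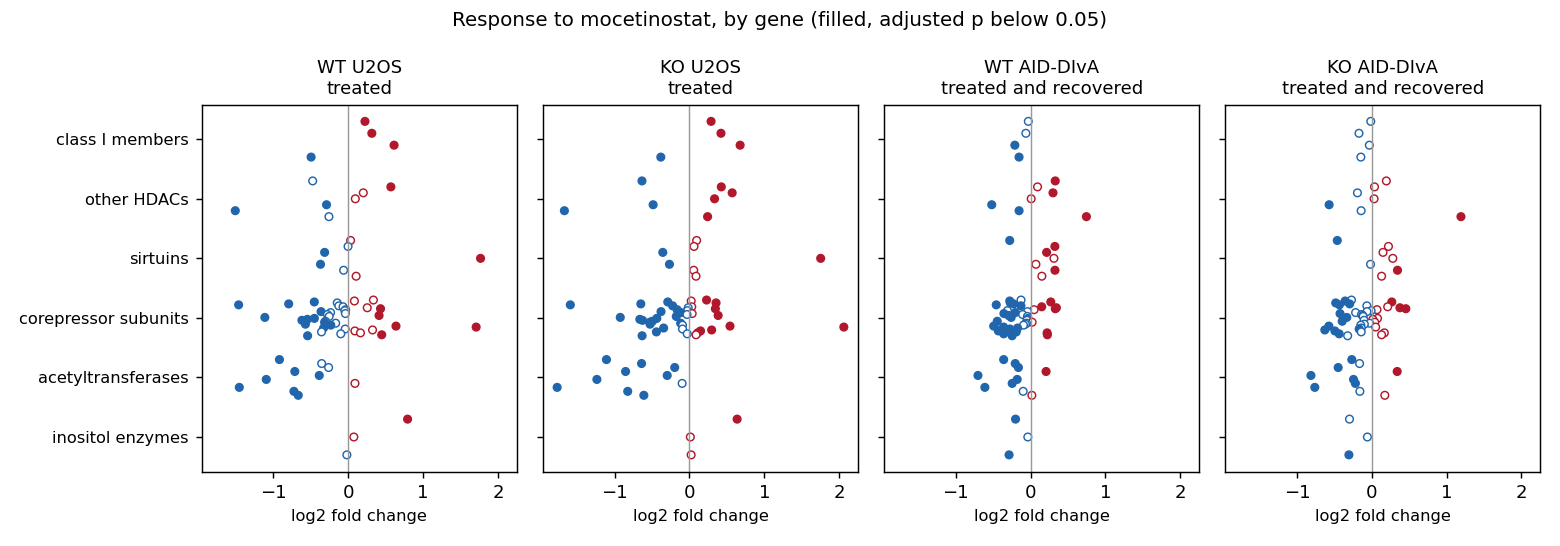
Log2 fold change (x axis) of every gene of each list (rows) after mocetinostat in WT and KO U2OS cells and in recovered WT and KO AID-DIvA cells, red for above and blue for below 0, filled for an adjusted p below 0.05. The 4 members (top row) stay within 0.7 of 0, while HDAC7, KAT6B and CHD3 lie beyond -1 and RCOR2 and SIRT4 beyond 1.7 in U2OS cells.

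Genes with the most similar course over the 24 libraries were ranked by Pearson's correlation of log2 CPM among 15593 genes. HDAC1 was closest to SAMD14 (r = 0.97), TMEM132E (0.96) and HIST1H1C (0.96), HDAC2 to PPP2CB (0.945), ETNK1 (0.938) and NCOR1P3 (0.93), HDAC3 to MAN1C1 (0.99), VSTM2B (0.98) and DLG3 (0.98), and HDAC8 to BUD13, GPRASP2 and NFYC (0.96 each). Members were left out of this ranking. Among themselves, HDAC1 and HDAC2 had r = 0.74, HDAC1 and HDAC3 0.58, HDAC2 and HDAC3 0.40, and HDAC8 was opposed to all of them, most to HDAC3 with r = -0.73. The 24 points share 8 group means and the same library scaling, so these values describe likeness of pattern only.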

How the data were processed

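Stranded total RNA libraries, read as paired ends of 100 bases, were aligned by the authors with STAR to hg19 (GRCh37) and assigned to genes with featureCounts, per the labels and the study's methods. The deposited values are read counts per gene without normalization, on either strand and on each strand, beside the summed exonic length of each gene, which the authors deposited with them and which served for the scaling to TPM. Groups followed the sample titles. The 4 members and the surrounding gene lists were chosen with earlier results of these data known.

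Counts on either strand were tested with edgeR 4.0.16 (quasi-likelihood, TMM factors, low counts removed with filterByExpr) under R 4.3.3 with limma 3.58.1, separately for the 6 libraries of 2 groups, the 12 of a line for interactions and all 24 for differences between lines, and p-values were adjusted by the Benjamini-Hochberg method over all genes tested, with 0.05 as threshold. Intervals are 95% intervals. Replicates were biological per the labels, whose separate origin is not described further, so that p-values measure the spread between these samples. The tests were checked on simulated counts. Library totals ranged from 37878751 to 76906266, and intervals cover the spread between replicates. Alternatives were DESeq2 1.42.0, its size factors, library totals without TMM, no filter, at least 10 counts in every library, the counts of the strand the kit reads, all groups of a line in one fit, a replicate block, and leaving out each replicate. Besides the members, the text draws for each treatment comparison on the 2 passing genes of each list group with the largest absolute log2 fold change, a mean of at least 1 CPM and no overlap between groups, and takes rows that overlap a member or are its pseudogenes, ID3, the cell type markers and, for each member the 3 genes with the highest correlation of log2(CPM + 0.5). Promoter windows came from a RefSeq table of GRCh38.p14 and were placed in hg19 by exact match, with 250 bases before the start printed. Canonical transcripts were those of GENCODE v44lift37. Protein sequences were not analysed here.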

Additional observations from a re-analysis of the deposited data

Results flagged for a closer look

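All 4 members had a response to mocetinostat that differed between treated and recovered AID-DIvA cells and treated U2OS cells, in WT and in KO, by a test of the difference itself (edgeR's quasi-likelihood test over 24 libraries, adjusted over 23087 genes). In WT the difference in log2 fold change, AID-DIvA minus U2OS, was -0.25 for HDAC1, -0.38 for HDAC2, -0.82 for HDAC3 and 0.34 for HDAC8. In KO it was -0.30 for HDAC1, -0.59 for HDAC2, -0.70 for HDAC3 and 0.24 for HDAC8. The corepressor partners HDAC1 and HDAC2, and HDAC3, thus had a lower response after recovery, and HDAC8 a higher one. Differences of this kind were frequent, since 45.4% of genes passed in WT and 46.0% in KO. Cell line label and recovery cannot be told apart in these libraries.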

How the results depend on the processing

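Of 752 alternative values for the 48 member tests, 706 kept their direction and side of the threshold. HDAC3 and HDAC8 in both U2OS genotypes, and HDAC1 and HDAC2 in KO U2OS cells, kept theirs under all alternatives run. Without the filter, HDAC1 in treated WT U2OS cells was 0.23 (adjusted p = 0.075), HDAC8 in the KO difference between lines 0.24 (0.19), HDAC2 in recovered KO against WT 0.22 (0.019) and HDAC8 there 0.0032. By library totals, the KO difference of HDAC8 was 0.13 (0.21), HDAC3 in recovered KO against WT was -0.0027, and the folds of highest over lowest mean were 1.82, 2.02 and 1.32 for HDAC1, HDAC3 and HDAC8. HDAC1 in recovered KO cells was 0.00060 with DESeq2 and 0.00064 with its size factors, and HDAC2 in recovered KO against WT was 0.20 (0.046) with all 4 groups in one fit. Shares with canonical lengths were 58.4%, 10.1%, 21.2% and 10.3% for HDAC1, HDAC2, HDAC3 and HDAC8. Deviations of same-numbered samples correlated between -0.30 and 0.18, so that the numbers did not pair the samples; with the replicate block, HDAC1 was 0.22 (adjusted p = 0.070) in treated WT U2OS cells and 0.28 (0.10) in untreated KO against WT U2OS cells.

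Leaving out single replicates gave 0.20 to 0.24 for HDAC1 and 0.26 to 0.35 for HDAC2 in treated WT U2OS cells, -0.13 to -0.013 for HDAC2 and -0.17 to -0.15 for HDAC8 in recovered WT cells, and -0.038 to 0.047 for HDAC1, -0.086 to 0.021 for HDAC3 and -0.18 to -0.10 for HDAC8 in recovered KO cells. For KO against WT it gave 0.26 to 0.31, 0.13 to 0.21 and -0.084 to 0.025 for HDAC1, HDAC2 and HDAC3 in untreated U2OS cells, and 0.16 to 0.27, -0.051 to 0.071 and -0.060 to 0.035 for HDAC2, HDAC3 and HDAC8 after recovery. The AID-DIvA interaction ranged from -0.0091 to 0.083 for HDAC1 and -0.027 to 0.060 for HDAC8, and the KO difference between lines from 0.19 to 0.30 for HDAC8. The cause was not tested. Genes called overall moved by over 1.5 times from 3132 to 5658 for untreated U2OS genotypes and from 8267 to 4389 for treated ones with all 4 groups in one fit, from 4759 to 3152 for recovered genotypes with the block, for the AID-DIvA interaction from 258 to 469 with DESeq2, 613 unfiltered and 157 with the block, and for the U2OS interaction from 488 to 920 with DESeq2 and 775 unfiltered, and listed genes passing in treated WT U2OS cells from 32 to 52 without untreated replicate 1.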
